A study of Homo sapiens with 3 samples.

Results

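The MiT/TFE family comprises 4 genes, MITF, TFEB, TFE3 and TFEC, which encode related basic helix-loop-helix leucine zipper transcription factors. They were taken as the protein-coding records of those names, 4 of 20037 on the primary chromosomes, each with 50 kb on both sides; such a stretch is called a window here. Every peak that shared at least 1 base with a window was counted. Both peak lists came from THP1, a human monocytic leukaemia line of wild-type genotype, kept for 24 h with PMA, a phorbol ester that drives the cells towards a macrophage-like state. Chromatin was precipitated with an antibody to histone H3 acetylated at lysine 27 (H3K27ac), which marks promoters and enhancers in use, in 1 library. An antibody to the NAD-dependent deacetylase SIRT1 was used in the other, also 1 library, and an input shared the genotype and PMA treatment; its signal was not analysed here. All libraries came from PMA-treated cells, so nothing below compares treated with untreated cells. There are no replicates, and no test of a difference was possible.

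TFEB and TFE3 switch on genes of lysosomes and autophagy. When nutrients are plentiful, mTORC1 at the lysosome surface phosphorylates them and holds them in the cytoplasm; after starvation or lysosome damage they move to the nucleus and bind the E-box CACGTG, the core of the CLEAR element. MITF is the master regulator of melanocytes and also acts in osteoclasts and mast cells, from several alternative starts. TFEC is the smallest family member, and in mouse its expression is largely restricted to macrophages.

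The promoters that the results turn on are shown from 250 bases before to 50 bases after an annotated start, 5′ to 3′ on the gene's strand (RefSeq, GRCh38.p14). Capitals mark the motif matches described further on: in MITF start 1 and TFEB start 1 the core of the ZNF143 and THAP11 element, in MITF start 3 the cAMP response element and in TFE3 an AP-1 site. The promoter of the first MITF start, chr3:69739214-69739513 on the plus strand, is rich in CpG and carried weak H3K27ac. The second, chr3:69763561-69763860, lay wholly inside an H3K27ac peak, and the third, chr3:69936342-69936641, from which melanocytes make the MITF-M isoform, had no H3K27ac peak. The first TFEB start, chr6:41735559-41735858, and the TFE3 start, chrX:49043308-49043607, are on the minus strand and sit at the edge of strong peaks. The first TFEC start, chr7:116030714-116031013 on the minus strand, is a CpG-poor promoter wholly inside a peak.
MITF start 1: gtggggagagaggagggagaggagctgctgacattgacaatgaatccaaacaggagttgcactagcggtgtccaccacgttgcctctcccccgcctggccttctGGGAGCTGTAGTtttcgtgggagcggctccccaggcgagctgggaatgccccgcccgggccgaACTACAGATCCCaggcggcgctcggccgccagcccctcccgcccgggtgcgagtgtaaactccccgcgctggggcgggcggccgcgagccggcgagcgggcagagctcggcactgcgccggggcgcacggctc
MITF start 2: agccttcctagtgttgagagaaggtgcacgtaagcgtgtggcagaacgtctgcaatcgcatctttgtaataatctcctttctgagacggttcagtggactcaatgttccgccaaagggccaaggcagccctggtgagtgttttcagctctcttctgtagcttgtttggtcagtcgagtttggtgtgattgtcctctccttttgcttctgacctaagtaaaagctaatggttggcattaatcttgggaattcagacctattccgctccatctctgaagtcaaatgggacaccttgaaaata
MITF start 3: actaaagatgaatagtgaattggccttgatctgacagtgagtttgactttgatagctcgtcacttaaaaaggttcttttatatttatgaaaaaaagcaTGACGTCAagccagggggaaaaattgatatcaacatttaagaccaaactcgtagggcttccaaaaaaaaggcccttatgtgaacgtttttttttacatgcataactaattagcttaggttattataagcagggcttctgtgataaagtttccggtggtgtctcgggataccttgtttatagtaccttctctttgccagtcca
TFEB start 1: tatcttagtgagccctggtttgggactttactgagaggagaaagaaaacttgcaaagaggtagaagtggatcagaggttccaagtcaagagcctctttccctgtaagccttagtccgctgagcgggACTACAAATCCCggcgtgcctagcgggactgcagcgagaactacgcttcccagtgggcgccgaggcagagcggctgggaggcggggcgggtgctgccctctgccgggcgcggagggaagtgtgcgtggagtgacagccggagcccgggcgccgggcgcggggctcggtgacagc
TFE3 start 1: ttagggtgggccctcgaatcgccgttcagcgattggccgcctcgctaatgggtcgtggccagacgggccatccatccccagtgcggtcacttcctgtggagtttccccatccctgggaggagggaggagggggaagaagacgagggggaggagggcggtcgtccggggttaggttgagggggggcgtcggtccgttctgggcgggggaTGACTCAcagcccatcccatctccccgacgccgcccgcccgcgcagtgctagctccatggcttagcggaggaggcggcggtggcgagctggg
TFEC start 1: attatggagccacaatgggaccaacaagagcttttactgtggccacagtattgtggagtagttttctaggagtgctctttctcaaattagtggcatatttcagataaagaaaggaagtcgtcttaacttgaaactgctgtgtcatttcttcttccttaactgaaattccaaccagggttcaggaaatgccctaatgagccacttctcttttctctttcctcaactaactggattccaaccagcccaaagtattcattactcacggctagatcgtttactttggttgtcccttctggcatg

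The fold of a peak is the authors' ratio of signal to local background at the summit, and it was compared within 1 list only. The lists held 48735 H3K27ac and 95517 SIRT1 peaks on the primary chromosomes, with median folds of 6.36 and 2.78. Total read numbers were not used here. The fragments at each summit were instead recovered from fold and p-value, with a median of 15 for H3K27ac and 3 for SIRT1. Intervals below are 95% exact Poisson intervals of those fragments with the background held fixed, and they cover counting error only. Of 10 macrophage markers 9 had H3K27ac within 1 kb of a record end, against 56.7% of all protein-coding genes. The markers were chosen with earlier results of these data known, so the count is no independent check of cell type. At a record end SPI1 had a fold of 109, FCER1G 98.8, CEBPB 92.2 and CSF1R 68.3. The other record end of CSF1R had 11.8. Within 1 kb of an annotated start CSF1R had 49.2. The exception among the 10 was LYZ, which encodes lysozyme.

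All 4 windows held H3K27ac, as did 83% of all protein-coding genes under the same rule, so the mere presence of a peak does not set the family apart. The windows held 41 H3K27ac peaks in all, of which 32 had their summit inside the member's own record. TFEB had 14, MITF 13, TFE3 8 and TFEC 6. Per 100 kb of window this was 9.20 for TFEB, 6.98 for TFE3, 3.95 for MITF and 1.85 for TFEC, against a median of 2.39 over all protein-coding genes. The highest fold in the window was 66.7 at TFE3 (57.4 to 77.1), 60.3 at TFEB (51.4 to 70.3), 27.8 at MITF (21.9 to 34.97) and 15.05 at TFEC (10.7 to 20.6). TFE3 and TFEB overlapped in their intervals, whereas MITF lay below both and TFEC below MITF. The highest fold in a window had a median of 22.2 over all genes, and 92.6%, 90.2%, 58.9% and 37.3% of genes had a lower one than TFE3, TFEB, MITF and TFEC. By this measure the lysosome regulators TFE3 and TFEB thus stood high among all genes, MITF slightly above the middle and TFEC below it. The place of TFEC depends on the window edge, since a peak with a fold of 24.5 began 537 bases outside it. That fold is above the median of 22.2. By the highest fold within 1 kb of a start, 58.4% of genes had a lower value than TFEC.

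**Figure D1:**
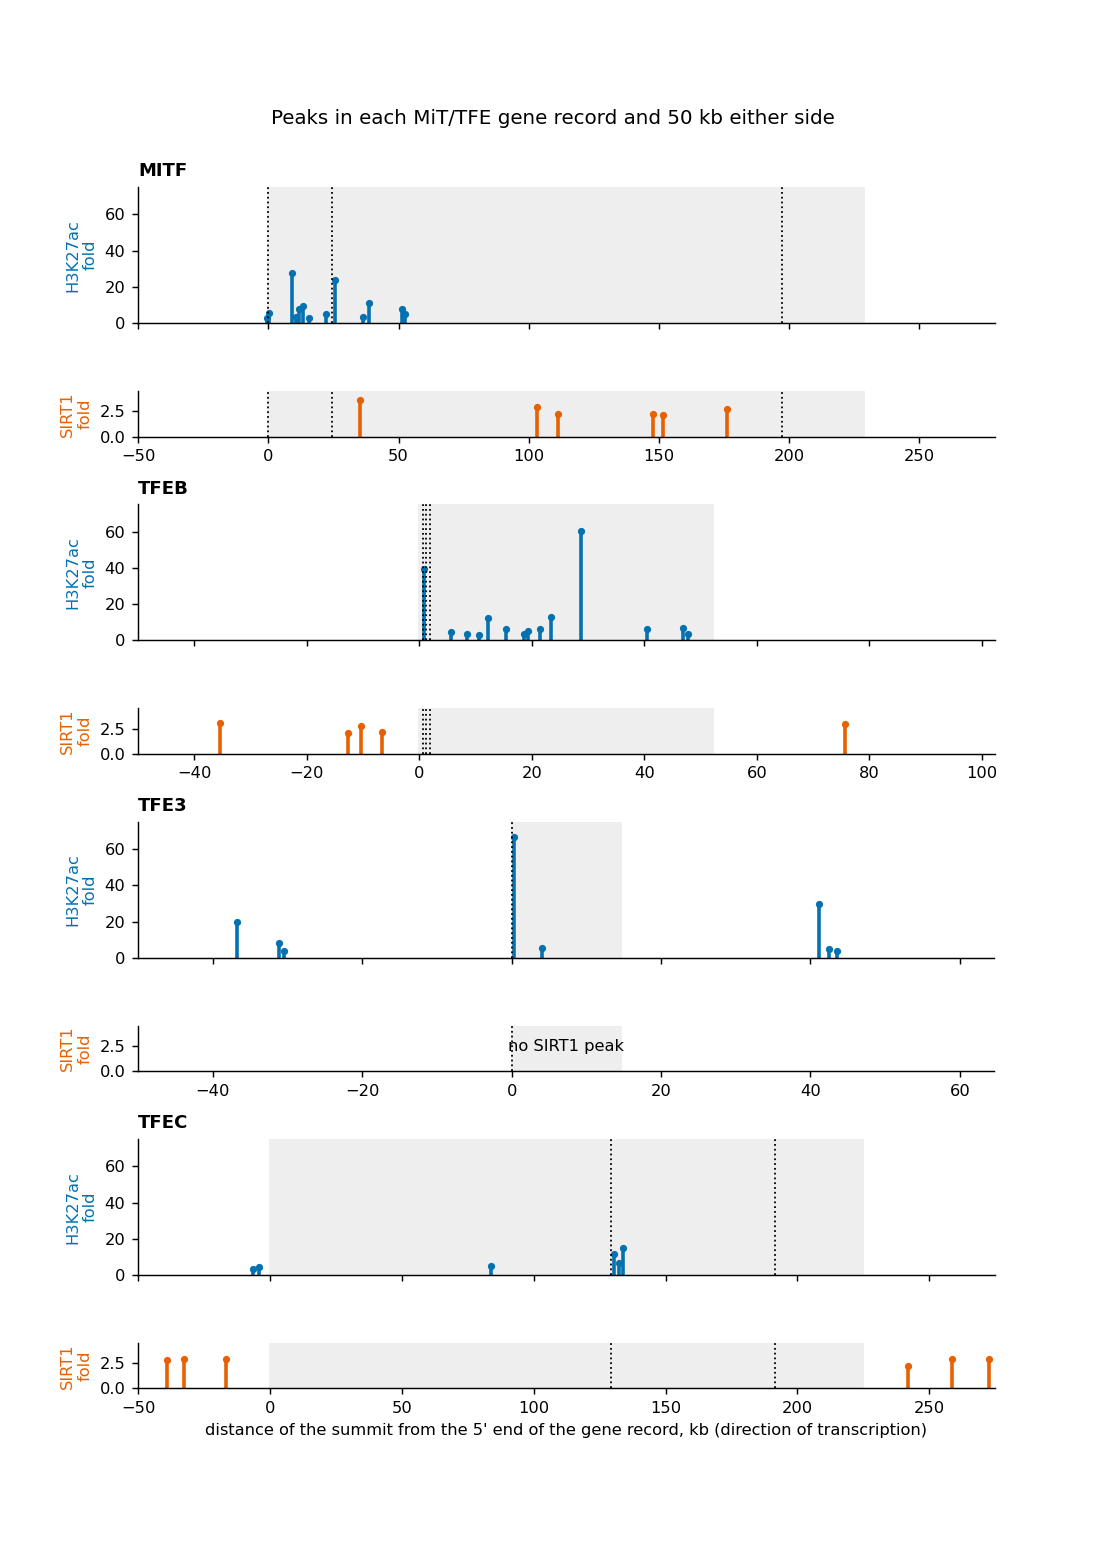
H3K27ac (blue) and SIRT1 (orange) peaks in the 4 windows, with the fold at each summit on the y axis and the distance from the 5′ end of the gene record in kb on the x axis, in the direction of transcription. Grey marks the record and dotted lines the annotated starts; H3K27ac peaks are spread along the TFEB record, take the 5′ part of MITF, sit on the TFE3 start and lie around an internal start of TFEC, and no SIRT1 peak lies in the TFE3 window.

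TFEB carried H3K27ac peaks spread along its record (chromosome 6, 41683978 to 41736223, 52.2 kb, minus strand). All 14 peaks of the window lay inside it. In the direction of transcription their folds were 39.7, 4.57, 3.45, 3.29, 12.2, 6.08, 3.36, 5.06, 6.48, 12.8, 60.3, 6.13, 6.74 and 3.77. The profile therefore had 1 high peak at the starts and 1 deep inside the gene, with lower peaks between and beyond. The highest of these lower peaks had folds of 12.8 and 12.2. The start peak was 2998 bases wide (41732734 to 41735731) and covered all 3 annotated starts, with its summit 257 bases downstream of the first. The internal peak was the widest of the family at 4.81 kb (41703873 to 41708683), and its summit was 28.8 kb from the 5′ end of the record. By fold the internal peak was higher, at 60.3 (51.4 to 70.3) against 39.7 (34.5 to 45.5) at the starts. By fragments the order was the other way, with 160 (136 to 187) at the internal summit and 206 (179 to 236) at the starts. The recovered background was 1.67 fragments at the internal peak and 4.22 at the starts. Their fragment intervals overlapped and their fold intervals did not, so which of the peaks is the stronger depends on the measure.

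Joining H3K27ac peaks less than 12.5 kb apart gave 1 TFEB domain of 47.3 kb that held all 14 peaks. Its peaks covered 18.1 kb, which ranked 397 of 19489 such domains. Of the flanking genes, PGC, which encodes the stomach protease precursor progastricsin and lies next to the TFEB starts, had 0 H3K27ac peaks in its record. MDFI on the other side and the adaptor gene FRS3 also had 0. The next H3K27ac peak towards PRICKLE4 began 594 bases outside the window with a fold of 26.2. It was not counted.

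TFE3, on the X chromosome (49028726 to 49043357, 14.6 kb, minus strand), had the highest fold of the family, with an interval that overlapped that of the internal TFEB peak; by fragments the TFEB start peak was higher, with 206. The TFE3 peak spanned 49040925 to 49043439, with 182 fragments (157 to 210) at a summit 254 bases downstream of the only start in the promoter table. Its fold of 66.7 exceeded that of 98.7% of all H3K27ac peaks. A second peak inside the record reached 5.66. The other 6 peaks of the window lay outside the gene and nearest to starts of neighbours. The highest at GRIPAP1, a gene of endosome traffic, had a fold of 29.8, with lower ones of 4.65 and 3.61. Near PRAF2 the folds were 3.73 and 8.26, and at WDR45, an autophagy gene, 19.6. CCDC120, the neighbour nearest the TFE3 peak, had 0 H3K27ac peaks in its record. Of the 8 peaks of the window, 6 thus lay outside TFE3, and the gene's own H3K27ac was a domain of 2 peaks over 5.1 kb.

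MITF (chromosome 3, 69739464 to 69968332, 228.9 kb, plus strand) was acetylated in its 5′ part. All 13 peaks formed 1 domain of 53.6 kb from 69738797 to 69792352, in which 13.3 kb were covered, rank 682 of 19489. The 176.0 kb between that domain and the 3′ end of the record held 0 H3K27ac peaks. In the direction of transcription the folds were 3.04, 5.40, 27.8, 3.39, 8.01, 9.67, 3.05, 4.98, 24.0, 3.47, 11.3, 7.75 and 4.96. The high values were at 8.9 kb and 25.5 kb from the 5′ end of the record, and not at the end itself. The first annotated start lay in a gap between 2 low peaks, 12 bases before the one with a fold of 5.40 (3.17 to 8.69). The highest peak, 69746920 to 69749526, had 72 fragments (56.3 to 90.7) and lay 8.9 kb downstream of that start. The second start, 24.3 kb into the record, was inside the peak from 69763310 to 69765796, with a fold of 24.0 (18.0 to 31.5). The intervals of these 2 peaks overlapped each other and lay above that of the first start.

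The third MITF start, 197.1 kb into the record, is the melanocyte start. Its nearest H3K27ac peak was 144.2 kb away. Downstream of MITF, the 5′ part of SAMMSON, a long noncoding RNA gene known from melanoma, reaches into the window; its whole record held 0 H3K27ac peaks. Of 10 melanocyte markers 2 had H3K27ac within 1 kb of a record end, DCT with a fold of 8.76 and PMEL with 3.48, and TYR, TYRP1 and MLANA had none. Osteoclast markers had 5 of 10, led by MMP9 with 34.2 and DCSTAMP with 25.01, and mast cell markers 0 of 10, against 56.7% of all protein-coding genes. By annotated starts 1 mast cell marker, the transcription factor gene GATA2, had an H3K27ac peak within 1 kb, with a fold of 8.59. SIRT1 peaks lay at a record end of SOX10, a melanocyte marker, with a fold of 2.20, of CALCR, an osteoclast marker, with 3.47, and of the mast cell markers CPA3 and HDC, each with 2.94. Macrophage markers had 0 of 10. With 10 genes a list and 10.8% of all genes having such a peak, these counts set no list apart.

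TFEC (chromosome 7, 115935152 to 116159896, 224.7 kb, minus strand) had no H3K27ac at either end of its record. Its acetylation lay around the first start in the promoter table, which is 129.1 kb inside the record. The peak over this start spanned 116028129 to 116031629, 3.50 kb, with a fold of 11.8 (8.10 to 16.7) on 30 fragments, and its summit was 1340 bases downstream. A further 2 peaks followed within the gene, with folds of 6.75 and 15.05. The one at 15.05 had its summit 4.64 kb downstream of the start and was the highest of the window. These 3 peaks formed a domain of 6.9 kb, rank 1948 of 19489. Upstream of it were single low peaks, with a fold of 5.07 inside the record and folds of 4.196 and 3.45 beyond its 5′ end. The second start, 191.6 kb into the record, had no peak within 56.4 kb. A peak with a fold of 24.5, higher than any in the window, began 537 bases outside it on the upstream side and was not counted. That peak covered an annotated start of the neighbouring gene TES.

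Among the 9 annotated starts of the family, 7 had an H3K27ac peak within 1 kb, against 56.6% of 22199 starts of protein-coding genes. The 3 TFEB starts shared 1 peak. MITF and TFEB had 3 starts each and TFEC 2, and more starts make a count by gene easier to meet. At least 1 start had such a peak in all 4 genes, against 59.4% of the 15843 protein-coding genes listed in the promoter table. By record ends it was 3 of 4, against 56.7% of all genes; TFEC was the gene that the record ends missed. The highest fold within 1 kb of a start was 66.7 at TFE3, 39.7 at TFEB, 24.0 at MITF and 11.8 at TFEC. A lower value was found at 97.0%, 89.2%, 76.5% and 58.4% of genes, for TFE3, TFEB, MITF and TFEC in this order. The intervals of TFE3 and TFEB did not overlap here, nor did those of TFEB and MITF or of MITF and TFEC.

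**Figure D2:**
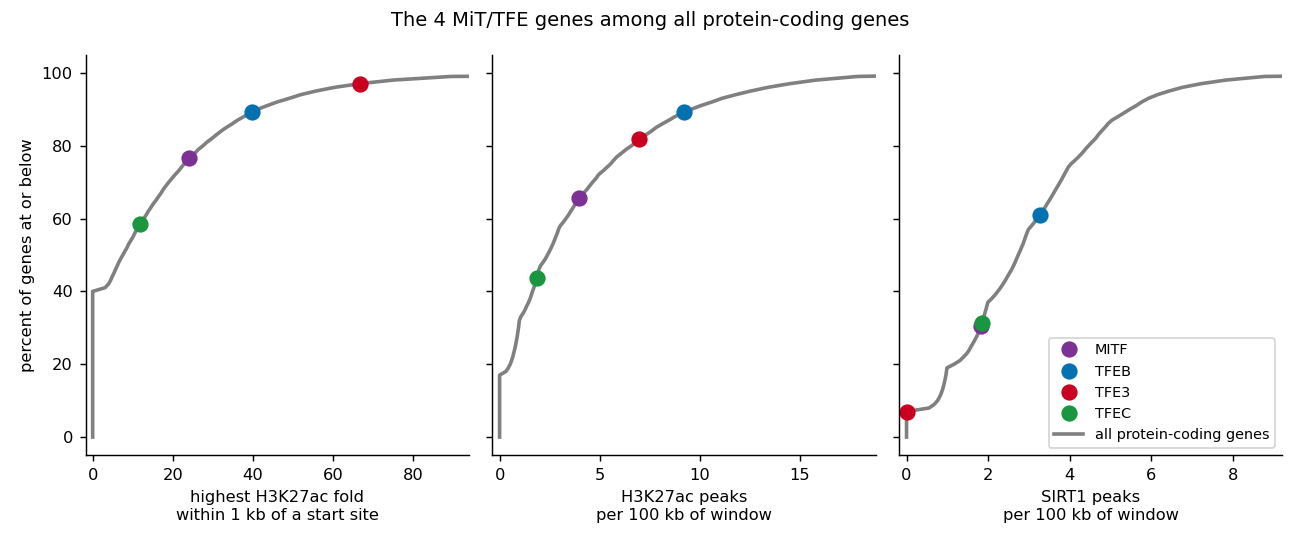
Cumulative share of protein-coding genes (grey) by highest H3K27ac fold within 1 kb of a start, H3K27ac peaks per 100 kb and SIRT1 peaks per 100 kb, with the 4 members as coloured points. TFE3 stands highest by fold at the start and at 0 for SIRT1, and TFEB has the most H3K27ac peaks per 100 kb.

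The 9 promoters fell into CpG-rich and CpG-poor ones, a feature that the choice of genes did not use. The TFEB promoters held 23, 35 and 34 CpG dinucleotides in 300 bases, that of TFE3 held 27 and that of the first MITF start 30. The promoters of MITF starts 2 and 3 held 8 and 6, and those of TFEC starts 1 and 2 held 3 and 1. The median over 22199 promoters of protein-coding genes was 21. The CpG-rich MITF promoter had a fold of 5.40, the lowest among the 7 starts with a peak, and the CpG-poor ones at the second MITF and first TFEC start had 24.0 and 11.8. Across all promoters, 75.2% of those with 15 or more CpG had an H3K27ac peak within 1 kb, 39.1% of those with 6 to 14 and 15.8% of those with under 6. The first TFEC promoter, shown above, was thus acetylated in a class where most promoters were not.

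**Figure D3:**
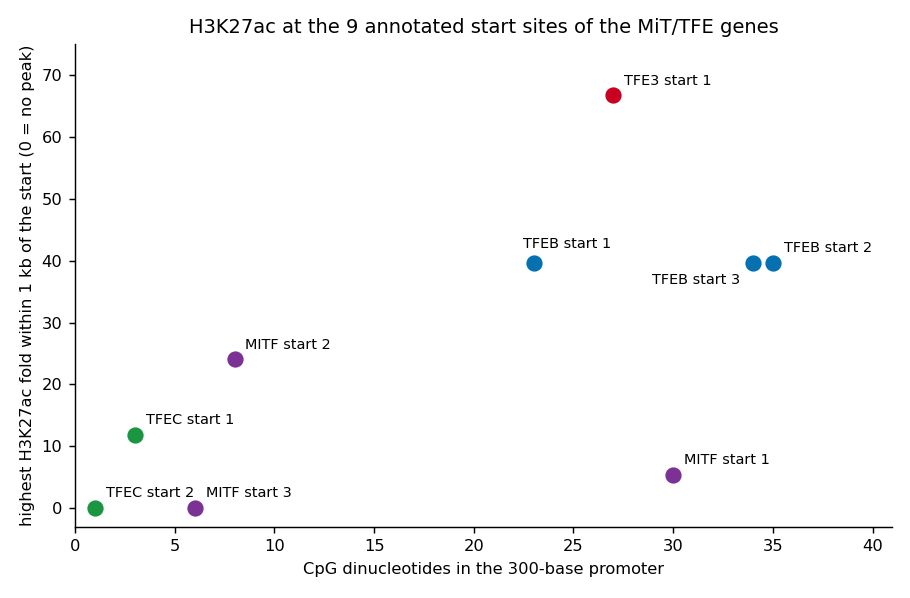
Each of the 9 annotated starts by the number of CpG dinucleotides in its 300-base promoter (x axis) and the highest H3K27ac fold within 1 kb (y axis, 0 where there was no peak). TFEB and TFE3 starts combine many CpG with folds of 39.7 and 66.7, the first MITF start has 30 CpG and a fold of 5.40, and the second MITF and first TFEC starts have few CpG and folds of 24.0 and 11.8.

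The promoters were searched on both strands for 7 motifs. CACGTG, the E-box that the family itself binds, was in 0 of 9 member promoters and in 8.34% of the 22199. The 10-base palindromic CLEAR element, which contains it, was in 0 of 9 and 0.496%, and TCATGTG, a form of the M-box, in 0 of 9 and 2.32%. GAGGAAGT, a core of PU.1 sites, was in 0 of 9 and 2.64%. The AP-1 form TGANTCA began 42 bases before the TFE3 start and was in 6.15% of all promoters. TGACGTCA, the cAMP response element, began 152 bases before the third MITF start and was in 2.26%. The 12-base core of the element bound by ZNF143 and THAP11 was searched for after the sequences had been read. It began 124 bases before the first TFEB start, and lay 83 and, on the opposite strand, 146 bases before the first MITF start. It was in 2.35% of promoters and at least 2 times in 0.311%. No match overlapped another in the member promoters. A match describes the letters only, and the absence of one concerns only these 300 bases.

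The SIRT1 list had 17 peaks in the 4 windows, and none overlapped any of the 41 H3K27ac peaks. In the whole list 0.745% of SIRT1 peaks overlapped H3K27ac, so 0 of 17 does not set these windows apart. At least 1 SIRT1 peak was present in 3 of the 4 windows, against 92.7% of all genes. All 17 rested on few fragments, with 6 peaks on 2, 9 on 3 and 2 on 4. None reached a q-value of 0.05, and −log10 q was 0 for 16. The whole SIRT1 list, all contigs included, had 144 of 96805 peaks under 0.05 and 86.3% at a −log10 q of 0. On the primary chromosomes 84.4% of SIRT1 peaks rested on 2 or 3 fragments. These counts thus do not set the windows apart. Within 1 kb of a record end 0 of 4 members had a SIRT1 peak, against 10.8% of all genes, and within 1 kb of a start 0 of 4, against 5.11%.

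MITF had 6 SIRT1 peaks, all inside its record, with folds of 3.64, 2.94, 2.20, 2.20, 2.13 and 2.78 in the direction of transcription. The first spanned 69774462 to 69774917 with 4 fragments (1.09 to 10.2) and a −log10 q of 0.175. It lay within the acetylated 5′ domain, 224 bases from the nearest H3K27ac peak, the smallest distance in the family. The other 5 lay 103.3 to 176.3 kb from the 5′ end, in the part of the record without H3K27ac. Of all SIRT1 peaks 0.990% lay within 1 kb of an H3K27ac peak without overlapping it.

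TFEB had 5 SIRT1 peaks and TFEC 6, and all 11 lay outside the member's record. Those of TFEB had folds of 3.05, 2.10, 2.80 and 2.13 upstream, from the farthest to the nearest, and 2.92 downstream. The farthest lay in the FRS3 record and rested on 4 fragments. The 2 nearest lay in the PGC record, and the peak with a fold of 2.13, on 2 fragments, was 7.2 kb from the first TFEB start. Those of TFEC had folds of 2.78, 2.92 and 2.94 upstream and 2.19, 2.94 and 2.94 downstream, on 2 or 3 fragments each. TFEB, with 5 peaks in 152.2 kb, had 3.28 per 100 kb, above the median of 2.74 over all genes, whereas TFEC had 1.85 and MITF 1.82. TFE3 had 0 SIRT1 peaks in 114.6 kb, and the nearest to its start was 176.3 kb away; 7.34% of all genes had none in their window. With 2 to 4 fragments a peak, an order of the members by SIRT1 was not detectable at this depth.

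**Figure D4:**
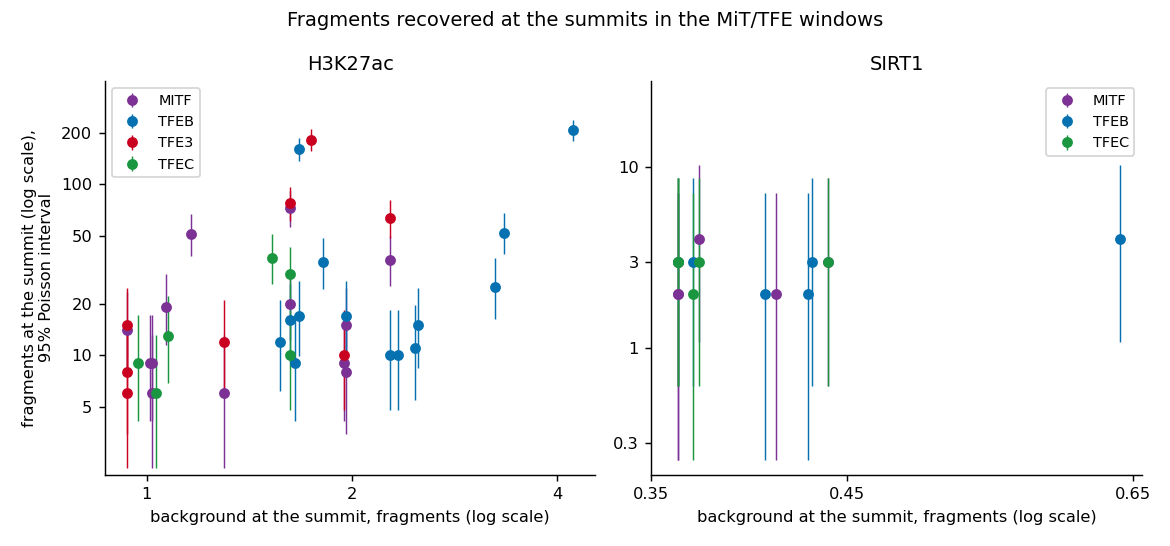
Fragments at the summit (y axis, log scale, 95% Poisson intervals) against the recovered background (x axis, fragments, log scale) for the 41 H3K27ac peaks and the 17 SIRT1 peaks of the windows. H3K27ac summits hold 6 to 206 fragments and SIRT1 summits 2 to 4, and the TFEB start peak has the highest fragment number and the highest background of the family.

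The upstream regulators of the family were described by a list of 25 genes, and all 25 had H3K27ac within 1 kb of a record end, against 56.7% of all protein-coding genes. The median fold of the acetylated ones was 23.1, against 19.0 over all acetylated genes. The highest were FLCN with 80.8 and FNIP1 with 77.1, which encode folliculin and its partner, the pair that acts on the Rag GTPases. PPP3R1, the regulatory subunit of calcineurin, the phosphatase that activates TFEB, had 74.7, and LAMTOR1, the lysosomal anchor of the Ragulator complex, had 69.9. MTOR itself had 26.1. The lowest was TSC2, a brake on mTORC1, with 6.63. SIRT1 peaks lay at an end of 3 of the 25, namely TSC2 with a fold of 2.91, RRAGA, a Rag GTPase, with 2.43 and PPP3R1 with 2.16. This share was near the 10.8% of all genes. At PPP3R1 the SIRT1 peak was at the end without H3K27ac; RRAGA and TSC2 had H3K27ac at the SIRT1-bearing end too.

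Of 30 known lysosome and autophagy targets of the family, 29 had H3K27ac at a record end, against 56.7% of all genes. Their median fold was 22.6, against 19.0 over all acetylated genes. The chloride exchanger gene CLCN7 had 88.2, the lysosomal protease gene TPP1 81.4, the V-ATPase subunit gene ATP6V1A 73.4 and the autophagy receptor gene SQSTM1 72.6. CTSF, a cathepsin gene, was the exception. The weakest acetylated one was MCOLN1, the lysosomal calcium channel upstream of TFEB activation, with 4.17. SIRT1 peaks lay at a record end of 0 of the 30, against 10.8% of all genes. CACGTG was in 11 of the 20 target promoters in the table, at 10 of 17 genes, against 8.34% of all promoters; the list was chosen as known targets, so this is a description of the choice. The promoters of the highest and the lowest acetylated target both hold the E-box 2 times, which the capitals mark. CLCN7, chr16:1474979-1475278 on the minus strand, has it 47 and 27 bases before the start. MCOLN1, chr19:7522374-7522673 on the plus strand, has it 41 and 14 bases before, the nearer one inside a full CLEAR element, which is capitalised whole.
CLCN7: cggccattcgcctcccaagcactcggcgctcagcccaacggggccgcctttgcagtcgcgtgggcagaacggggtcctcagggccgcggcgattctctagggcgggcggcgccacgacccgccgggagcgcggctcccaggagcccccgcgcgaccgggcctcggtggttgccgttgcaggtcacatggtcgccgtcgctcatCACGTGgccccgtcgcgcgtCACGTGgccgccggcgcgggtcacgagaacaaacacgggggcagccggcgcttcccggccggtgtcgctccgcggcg
MCOLN1: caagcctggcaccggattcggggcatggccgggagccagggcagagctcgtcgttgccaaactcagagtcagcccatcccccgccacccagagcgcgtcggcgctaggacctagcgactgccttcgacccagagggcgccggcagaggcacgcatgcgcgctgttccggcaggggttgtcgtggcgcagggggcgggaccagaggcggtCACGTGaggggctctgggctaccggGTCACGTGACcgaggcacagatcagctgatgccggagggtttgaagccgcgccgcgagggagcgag

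**Figure D5:**
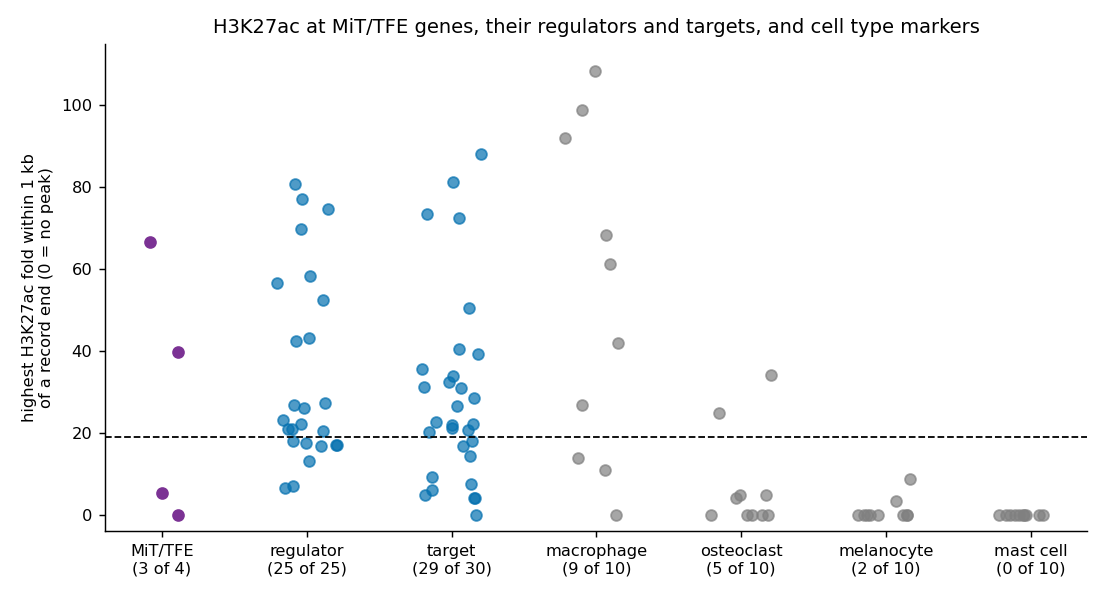
Highest H3K27ac fold within 1 kb of a record end (y axis, 0 where there was no peak) for the 4 MiT/TFE genes, their regulators and targets, and markers of 4 cell types, 1 point per gene. Counts of genes with a peak stand under each list, and the dashed line is the median of 19.0 over all acetylated protein-coding genes; 17 of 25 regulators and 20 of 30 targets lie above it, melanocyte markers reach at most 8.76 and mast cell markers lie at 0.

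The genes most like each member were taken by distance in H3K27ac peaks per 100 kb, log2 of the highest H3K27ac fold and SIRT1 peaks per 100 kb, each in SD over all genes, which rests on 2 libraries. WDFY2 and PRR13 were nearest to MITF, at 0.0348 and 0.0554 SD, and PGD and HOGA1 to TFEB, at 0.0439 and 0.0939. LRCH4 and PTBP1 were nearest to TFE3, at 0.0414 and 0.0580. Both had 8 H3K27ac peaks and 0 SIRT1 peaks, and the choice itself used the peaks per 100 kb. IQCB1 and VEGFC were nearest to TFEC, at 0.0247 and 0.0358.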

How the data were processed

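ChIP-seq peak lists of 2 libraries, H3K27ac and SIRT1, 1 each, were analysed as 10-column text with no header. The tools named per the submitters' processing notes were deepTools and MACS2, on hg38. Aligner: not given in the sources used here; nor are versions or the caller's control. The fold of each peak is a ratio deposited by the authors. The −log10 p and −log10 q were also deposited. The score deposited by the authors is 10 times −log10 q for H3K27ac and 10 times −log10 p for SIRT1, cut to a whole number, so the lists were filtered differently. The smallest −log10 q was 1.30 for H3K27ac and 0 for SIRT1, so folds were compared within a list.

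Fragments k and background b at a summit were recovered from fold = (k + 1)/(b + 1) and a Poisson tail for p. A single whole-number solution was found for 99.8% of H3K27ac and 99.998% of SIRT1 peaks, and for every peak in the windows. On simulated data 99.9% of 1997 H3K27ac-like and 100% of 2000 SIRT1-like summits were returned. Records were RefSeq genes on GRCh38.p14, the build of hg38; starts and strand came from the RefSeq promoter table, which matched 15843 of 20037 genes and all 4 members. Exons were not used, so a peak is placed inside or outside a record only.

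The members and lists were chosen with earlier results of these data known. Named genes were the members; of the regulators and of the targets, the 4 highest, those without H3K27ac and those with SIRT1 at a record end; the neighbour nearest each highest peak; and the 2 most like genes per member. Other genes were named after their values were seen. Alternatives changed the flank, the end distance, the peak threshold, merging and the use of summits. Computations used scipy 1.17.1, pandas 2.3.3 and numpy 2.4.6 under Python 3.11.15, and plots matplotlib 3.10.9.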

Additional observations from a re-analysis of the deposited data

How the results depend on the processing

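Of 40 recomputed values, 33 stayed within 1.5 times the reported one. Some of these could not have moved, since a count of 0 cannot fall under a stricter setting and 25 of 25 regulators cannot rise. The 41 H3K27ac peaks became 26 with a −log10 q of at least 5, and 24 when peaks within 1 kb were merged. The 17 SIRT1 peaks became 28 with 100 kb on both sides, and 0 with a fold of at least 4 or a −log10 q of at least 5. With at least 4 fragments, a setting chosen after seeing the data like the use of starts, 2 were left. Starts in place of record ends gave 16 acetylated targets in place of 29, since the promoter table held 17 of the 30 target genes. SIRT1 peaks overlapping H3K27ac numbered 0 with 100 kb on both sides and after merging, settings that could have raised the count. With 25 kb on both sides and by summits the count was also 0, but these settings are stricter and could not have raised it. The thresholds on fold and q left no SIRT1 peak that could overlap. The SIRT1 peaks rest on at most 4 fragments each, and low depth and weak enrichment cannot be told apart. No paired analysis was possible because each antibody had 1 library.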
